A study of Mus musculus with 8 samples.

Results

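Axon guidance ligands and receptors were followed in wild-type (WT) and CTCF-K20R mouse cells before and during differentiation. They comprised 67 of the 18094 genes of the expression table, selected by gene name alone: the Eph receptors and ephrins, the semaphorins, the plexins and neuropilins, the Slits and Robos, netrins 1, 3 and 4, the Unc5 receptors, and the netrin receptors Dcc and Neo1, of which Neo1 was the 1 found. RNA-seq libraries were available from 4 groups with 2 libraries each, namely WT mESCs and CTCF-K20R mESCs on day 0, and WT EBs and CTCF-K20R EBs on day 4. Every group derived from E14Tg2A, a male mouse embryonic stem cell line, kept on fibroblasts inactivated with mitomycin C in medium with serum, LIF and the 2i inhibitors CHIR99021 and PD0325901. EBs, or embryoid bodies, are the aggregates that such cells form in hanging drops in serum without LIF, and in them the first steps of differentiation take place. In the CTCF-K20R cells, lysine 20 of CTCF was replaced with arginine through CRISPR/Cas9 and a donor vector. These cells came from edited clones, and how many clones the libraries represent is not given in the sources used here, so that genotype and clone cannot be told apart.

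These genes encode signals and their receptors, which steer growing axons and migrating cells. Secreted class 3 semaphorins bind neuropilins, which pass the signal on through class A plexins, whereas most membrane-bound semaphorins bind plexins directly. Slits signal through Robo receptors, and netrins through Dcc, Neo1 and Unc5 receptors. Eph receptors are receptor tyrosine kinases that bind ephrins on the neighbouring cell, with ephrin-A proteins held by a lipid anchor and ephrin-B proteins spanning the membrane. In the early embryo the same molecules act outside the nervous system, in the movement of mesoderm, the setting of tissue boundaries and the growth of vessels.

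The values are normalized counts, which are read counts that the authors scaled with DESeq2 so that libraries of different depth can be compared. They summed to between 19412659 and 21311513 per library, and 3 reads, taken as the limit of detection, corresponded to 2.43 to 3.44 normalized counts. This limit covers counting error only. Both WT libraries of a day differed from each other by less than the sampling noise, with a squared difference of 0.305 times that noise on day 0 and 0.276 times on day 4, against 3.88 and 4.26 times for the CTCF-K20R libraries. Each WT pair was therefore averaged and counted as 1 sample, while each CTCF-K20R group kept n = 2. The methods of the study describe the libraries of a group as biological replicates from independent experiments, and the averaging follows from the values alone. The spread behind every test is that between CTCF-K20R libraries. A gene was called when its log2 fold change, on the log2(value + 1) scale, was above 1 or below -1 and its adjusted p from limma was under 0.05 over the 15767 genes that averaged 10 normalized counts or more. Of the 67 guidance genes, 63 passed that minimum, while Sema3g, Plxnb3, Epha3 and Robo2 stayed under it. The transcript of Ctcf itself reached 4241 and 4256 normalized counts in WT and 4926 and 4771 in CTCF-K20R EBs, and the point mutation cannot be read from such values.

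On day 4, guidance genes were lower in CTCF-K20R EBs than in WT EBs far more often than they were higher. Of the 63 genes tested, 26 were lower and 4 were higher, which is 41.3% and 6.35% of them, beside 8.65% and 6.89% of all genes tested. The remaining 33 were not called. Over all 63, the log2 fold change had a median of -0.95, against 0.01 for all genes tested. Quantile normalization, which shifted the log2 fold changes of all genes tested by a median of 0.11, put the median of the guidance genes at -0.81. In 48 genes the CTCF-K20R libraries were both below the WT pair, in 14 both above it, and in 1 the groups overlapped, beside 41.7% below and 43.3% above among all genes tested. The largest differences were those of Nrp1, Sema6d, Plxna4, Plxna2 and Nrp2, with log2 fold changes from -7.16 to -5.13. The mean of at least 10 was taken over all 8 libraries, WT EBs included. Among the genes called lower, Nrp1, Sema6d, Plxna4, Sema3a and Robo3 passed it only through the WT EB libraries, the group in which they were high. Ligands were called lower in 16 of 33 cases and receptors in 10 of 30. When CTCF-K20R EB replicate 1 was left out, 17 genes were lower and 2 higher, and without replicate 2 there were 20 lower and 2 higher. In bulk RNA, fewer cells of a type and less RNA per cell cannot be told apart.

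**Figure D1:**
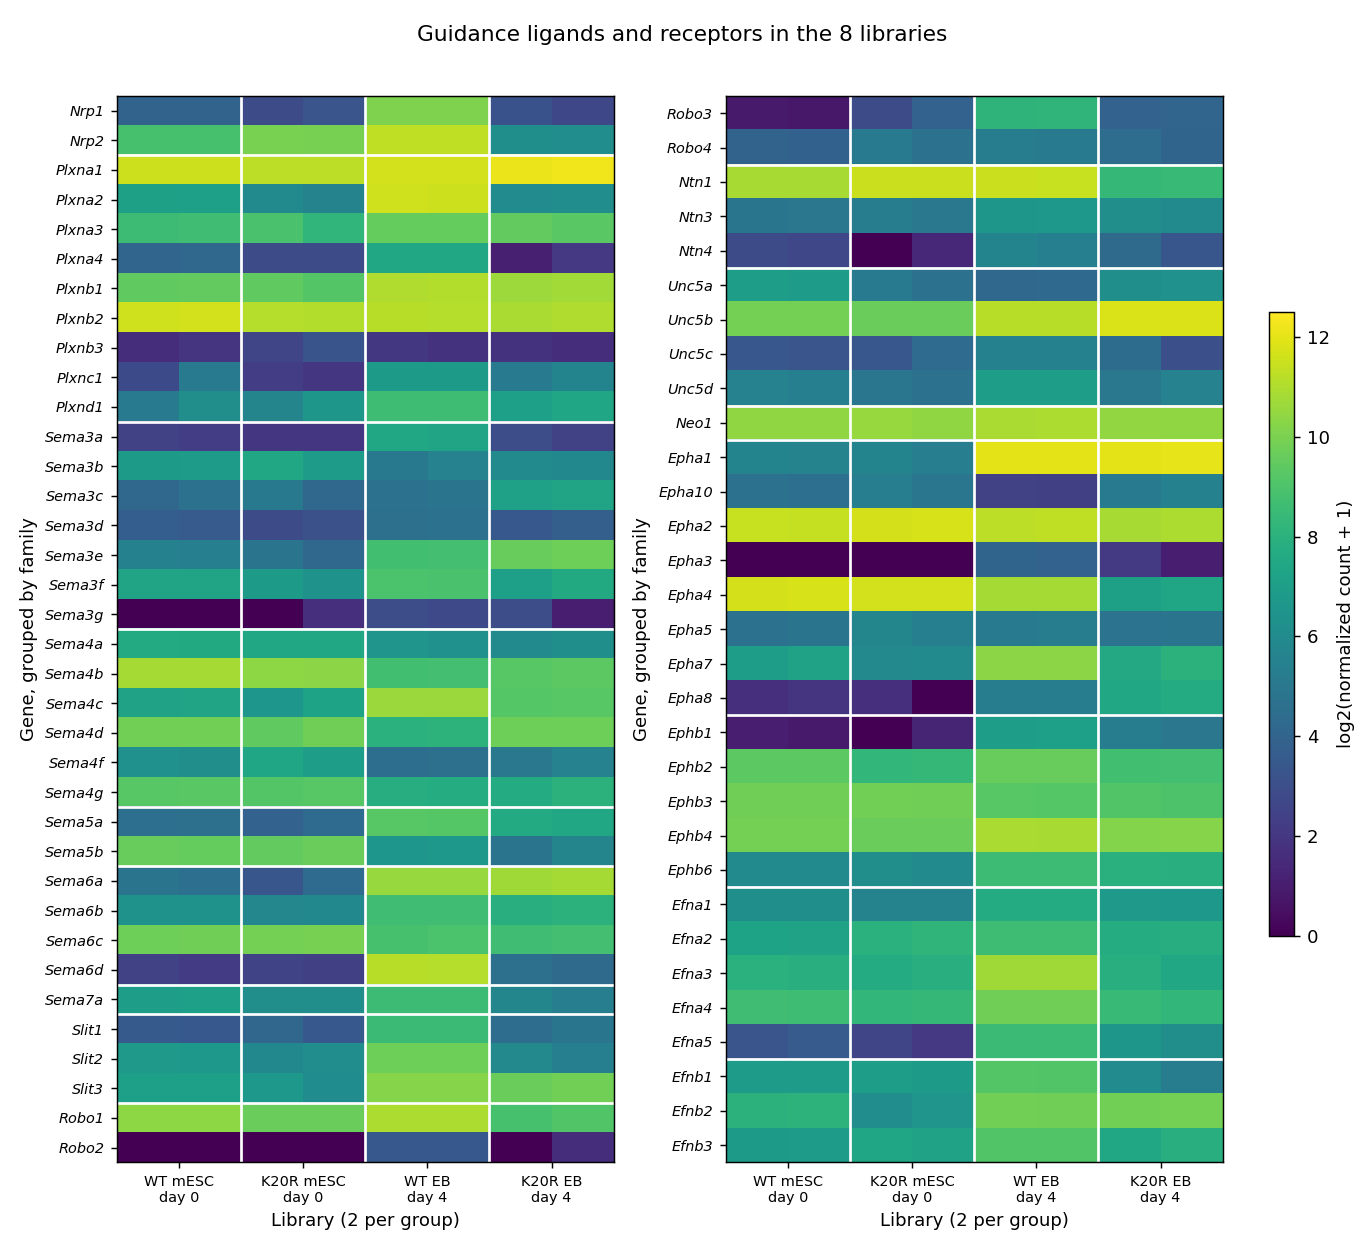
Each row is 1 of the 67 guidance genes, grouped by family between white lines, and each column is 1 of the 8 libraries, with colour giving log2(normalized count + 1). Many rows are bright in the WT EB columns and dark in the CTCF-K20R EB columns, while Epha1 and Sema6a are bright in both.

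**Figure D2:**
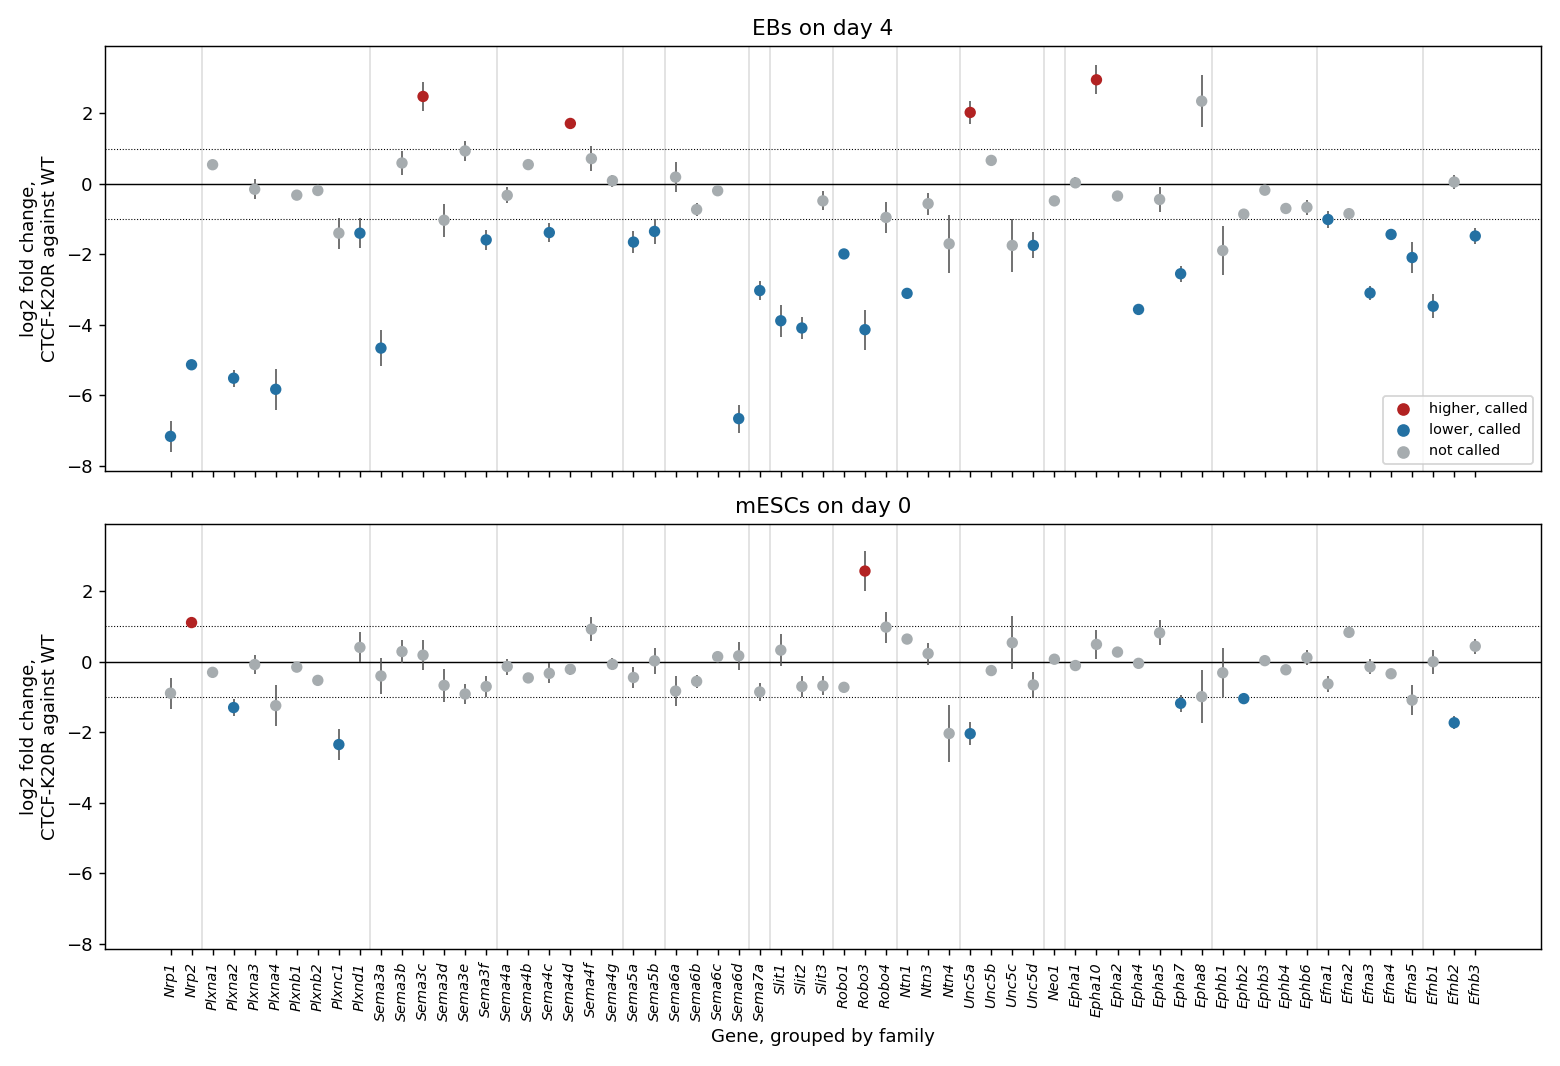
Points are log2 fold changes of CTCF-K20R against WT with their standard errors from limma for the 63 genes tested, with EBs on day 4 above and mESCs on day 0 below. Dotted lines mark the minimum fold change, and 26 genes are called lower on day 4 against 6 on day 0.

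Markers of several cell types also differed between the genotypes in the same libraries, in both directions. All 8 primitive streak and nascent mesoderm markers tested were lower in CTCF-K20R EBs. They summed to 40829 and 41007 normalized counts in WT and 2502 and 2403 in CTCF-K20R EBs, where in the latter Msgn1 was listed at 0 and Mesp1 lay under the limit of detection. All 6 definitive endoderm markers tested were lower too, with sums of 15306 and 15326 in WT EBs and 164.6 and 168.0 in CTCF-K20R EBs. Of 7 endothelial and blood progenitor markers tested, 3 were lower and 2 higher, so that the list went in both directions. Its sums were 3300 and 3292 in WT EBs and 550 and 485 in CTCF-K20R EBs. The VEGF receptor gene Kdr, which held most of the WT sums, was at 2312 and 2293 normalized counts in WT and 46.5 and 26.1 in CTCF-K20R EBs. Of 6 neural ectoderm markers, 3 were higher and the others were not called, and their sums were 2544 and 2510 in WT EBs and 3273 and 3426 in CTCF-K20R EBs. Of 7 markers of pluripotent cells, 4 were higher and 1 lower, with sums of 15541 and 15654 in WT EBs against 32146 and 31426 in CTCF-K20R EBs. Of 6 fibroblast markers tested, 2 were higher and 2 lower, and of 4 visceral and parietal endoderm markers 1 was higher and 1 lower. On day 0 the pluripotent sums ranged from 104210 to 105360 in all 4 mESC libraries, while the fibroblast sums were 526 and 513 in WT mESCs and 193 and 199 in CTCF-K20R mESCs, and Postn was listed at 0 in all 4. Thy1 held most of these sums and was called lower on day 0, whereas Fbln2 was called higher. Without Thy1 the fibroblast sums were 60.6 and 54.6 in WT and 89.1 and 95.8 in CTCF-K20R mESCs. In EBs the sums with Thy1 were 913 and 868 in WT and 790 and 732 in CTCF-K20R libraries. Without Thy1 they were 687 and 646 in WT and 210.0 and 206 in CTCF-K20R EBs. The part of any of these cell types in the values of the guidance genes was not tested.

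The promoters of the guidance genes that were lowered most are shown as the sequence context of the day 4 differences. They are those of the 6 genes with the lowest log2 fold changes among genes called lower that averaged 100 normalized counts or more and had a single promoter in the table used, followed by that of Epha1, which had nearly the same level in both genotypes on day 4. Each runs 5′ to 3′ on the gene's strand from 250 bases before to 50 bases after the annotated start, as given by RefSeq for GRCm38.p6, and capitals mark matches to the T-box motif GGTGTGA or to the TCF/LEF motif CTTTGAT on either strand.
Nrp1, chr8:128358823-128359122, + strand: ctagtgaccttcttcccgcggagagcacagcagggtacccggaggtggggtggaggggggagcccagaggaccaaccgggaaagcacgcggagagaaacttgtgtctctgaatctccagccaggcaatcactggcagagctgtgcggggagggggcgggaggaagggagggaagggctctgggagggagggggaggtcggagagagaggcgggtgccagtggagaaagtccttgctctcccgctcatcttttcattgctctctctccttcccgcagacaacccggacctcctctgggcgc
Plxna2, chr1:194619579-194619878, + strand: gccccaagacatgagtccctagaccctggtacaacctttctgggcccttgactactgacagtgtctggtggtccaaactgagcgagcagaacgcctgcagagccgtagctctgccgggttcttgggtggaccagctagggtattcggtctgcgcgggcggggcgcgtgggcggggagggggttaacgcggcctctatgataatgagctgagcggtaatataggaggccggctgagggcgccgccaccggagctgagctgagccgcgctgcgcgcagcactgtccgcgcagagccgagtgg
Nrp2, chr1:62703067-62703366, + strand: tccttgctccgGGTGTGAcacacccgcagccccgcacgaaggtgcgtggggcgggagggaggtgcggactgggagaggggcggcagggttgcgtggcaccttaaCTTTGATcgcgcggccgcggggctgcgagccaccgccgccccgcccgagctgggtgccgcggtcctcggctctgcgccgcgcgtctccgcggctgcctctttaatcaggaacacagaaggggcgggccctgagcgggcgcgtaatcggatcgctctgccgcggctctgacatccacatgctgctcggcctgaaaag
Slit2, chr5:47982905-47983204, + strand: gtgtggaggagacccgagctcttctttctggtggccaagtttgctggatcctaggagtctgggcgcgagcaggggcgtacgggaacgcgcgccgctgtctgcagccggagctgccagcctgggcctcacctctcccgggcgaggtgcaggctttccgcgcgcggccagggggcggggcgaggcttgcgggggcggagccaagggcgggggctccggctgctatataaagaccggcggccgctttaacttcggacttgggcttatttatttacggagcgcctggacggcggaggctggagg
Epha4, chr1:77515039-77515338, - strand: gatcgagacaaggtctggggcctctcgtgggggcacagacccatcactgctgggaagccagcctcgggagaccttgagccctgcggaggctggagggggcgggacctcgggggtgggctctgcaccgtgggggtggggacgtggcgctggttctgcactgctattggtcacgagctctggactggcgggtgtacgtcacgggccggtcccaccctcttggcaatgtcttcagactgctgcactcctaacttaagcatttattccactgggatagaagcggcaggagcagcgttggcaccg
Efnb1, chrX:99135811-99136110, + strand: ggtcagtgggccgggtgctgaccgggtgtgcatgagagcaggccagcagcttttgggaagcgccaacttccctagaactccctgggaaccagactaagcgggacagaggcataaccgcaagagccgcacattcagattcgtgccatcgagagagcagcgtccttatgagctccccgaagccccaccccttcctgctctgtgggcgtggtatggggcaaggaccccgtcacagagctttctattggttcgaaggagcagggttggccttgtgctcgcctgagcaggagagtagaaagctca
Epha1, chr6:42373219-42373518, - strand: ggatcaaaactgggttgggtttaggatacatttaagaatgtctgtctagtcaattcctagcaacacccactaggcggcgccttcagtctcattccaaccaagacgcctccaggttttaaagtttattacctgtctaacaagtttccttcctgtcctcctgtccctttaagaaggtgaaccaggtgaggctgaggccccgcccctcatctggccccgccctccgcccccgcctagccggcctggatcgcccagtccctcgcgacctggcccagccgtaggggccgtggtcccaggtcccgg
In these 7 windows, matches were present only in that of Nrp2, with the T-box motif starting at base 12 and the TCF/LEF motif starting at base 105. The table listed 74 promoters for 58 of the 67 genes. The T-box motif was found in 4 of these 74 promoters, against 3.98% of all 32851 promoters, and the TCF/LEF motif in 1, against 3.73%. The core motif of CTCF, searched on both strands, was found in 0 of the 74 and in 0.557% of all promoters. The promoters of the guidance genes were rich in G and C, with a median of 64.5% against 52.7% for all promoters. These matches are letters in a window and were not measured as binding.

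The 2 neuropilins had the lowest median log2 fold change of the 16 families on day 4, -6.15. Nrp1 (ENSMUSG00000025810, chr8:128358604-128503363), the co-receptor that class 3 semaphorins share with VEGF, was at 14.6 and 15.0 normalized counts in WT and 6.44 and 8.74 in CTCF-K20R mESCs, and 1084 and 1091 in WT and 7.91 and 5.47 in CTCF-K20R EBs. Only the WT EB libraries stood high, and the CTCF-K20R EB libraries lay at or below the level of the mESCs. Its log2 fold change on day 4 was -7.16 (standard error 0.45, limma adjusted p = 0.000242), from a mean of 1088 in WT EBs to 6.69 ± 1.72 (SD, n = 2) in CTCF-K20R EBs. Nrp2 (ENSMUSG00000025969, chr1:62703285-62818695), the co-receptor preferred by Sema3f, was at 462 and 470.2 normalized counts in WT and 1018 and 996 in CTCF-K20R mESCs, and 2517 and 2490.5 in WT and 72.8 and 68.1 in CTCF-K20R EBs. Thus Nrp2 was higher in CTCF-K20R mESCs than in WT mESCs and much lower in CTCF-K20R EBs than in any other group. The log2 fold change of Nrp2 was 1.11 on day 0 (limma adjusted p = 0.004) and -5.13 on day 4 (limma adjusted p = 1.68e-05), and within CTCF-K20R cells it fell by 3.82 from day 0 to day 4. Per kilobase of transcript, the neuropilins together summed to 674.8 normalized counts in WT EBs and 12.3 in CTCF-K20R EBs. Nrp2 made up 55.2% of the first sum and 84.9% of the second.

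Among plexins, the signalling receptors of semaphorins, class A split into members that were nearly lost and members that were kept. Plxna2 (ENSMUSG00000026640, chr1:194618218-194816869) was at 138 and 134 normalized counts in WT and 62.7 and 47.4 in CTCF-K20R mESCs, and 3067 and 3041 in WT and 63.3 and 68.5 in CTCF-K20R EBs. Both CTCF-K20R EB libraries lay below even the WT mESCs, and the log2 fold change on day 4 was -5.51 (standard error 0.24, limma adjusted p = 9.28e-05). Plxna4 stood at 171 and 171 normalized counts in WT and at 1.15 and 3.28 in CTCF-K20R EBs, about 4 reads in all. The ratio of the means was 77.4, with a 95% Poisson interval of 29.9 to 281 for the counting error of these reads alone. Plxna4 shares 110 exon bases with an antisense transcript and Plxna1 shares 970, the most of any guidance gene, and the use of strand in the counting is not given in the sources used here. In all, 15 guidance genes share exon bases with another gene, 12 of them with one on the opposite strand, so that part of their reads could be assigned to either. Plxna1 was not called on either day and was at 3012 and 2974 normalized counts in WT and 2447 and 2404 in CTCF-K20R mESCs, and 3177 and 3149 in WT and 4477 and 4766 in CTCF-K20R EBs, with a log2 fold change of 0.55 on day 4 that passed the adjusted p (limma adjusted p = 0.00114) but not the minimum fold change. Plxna3 was at 735 and 748 in WT EBs and 713 and 625 in CTCF-K20R EBs. Per kilobase, Plxna1 made up 46.9% of the class A plexin sum in WT EBs and 83.3% in CTCF-K20R EBs, while the sum itself was 746.8 and 614.0.

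Of the 4 plexins of classes B, C and D tested, 1 was called on day 4. Plxnd1, the vascular plexin that binds Sema3e without a neuropilin, was at 34.7 and 71.8 normalized counts in WT mESCs, 50.7 and 98.8 in CTCF-K20R mESCs, 393 and 395 in WT EBs and 131 and 169.6 in CTCF-K20R EBs. It was called lower on day 4 with a log2 fold change of -1.40, close to the threshold (limma adjusted p = 0.0477), and the call was lost in 6 of the alternative analyses. Plxnb1, the receptor of Sema4d, and Plxnb2 had log2 fold changes of -0.32 and -0.19 and were not called. Plxnc1, the receptor of Sema7a, had a log2 fold change of -1.40 that missed the threshold (limma adjusted p = 0.0534). Plxnb3 stayed under 10 normalized counts in all 8 libraries.

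Among semaphorins, the ligands of these receptors, 7 of 19 genes tested were lower, 2 were higher and 10 were not called on day 4. Sema6d (ENSMUSG00000027200, chr2:124089969-124667770), a transmembrane ligand of Plxna1, was at 4.28 and 3.58 normalized counts in WT and 4.95 and 4.13 in CTCF-K20R mESCs, and 2246 and 2244 in WT and 23.8 and 18.8 in CTCF-K20R EBs. Its fold change on the log2 scale was -6.66 (standard error 0.40, limma adjusted p = 0.000216). Sema6a and Sema6b were also more than 2-fold higher in WT EBs than in WT mESCs. Sema6a was at 27.1 and 22.9 normalized counts in WT and 9.14 and 19.9 in CTCF-K20R mESCs, and 1495 and 1519 in WT and 1677 and 1774 in CTCF-K20R EBs and was not called on day 4 (log2 fold change 0.19). Sema6a and Sema6d thus had similar profiles in WT cells and different ones in CTCF-K20R cells, with Sema6a at 1677 and 1774 and Sema6d at 23.8 and 18.8 in the CTCF-K20R EBs. Sema6b and Sema6c had log2 fold changes of -0.73 and -0.19 and were not called.

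Class 3 semaphorins, which are secreted, went in both directions. Sema3a, the classical ligand of Nrp1, had a log2 fold change of -4.66 (limma adjusted p = 0.00163). Sema3f, the ligand of Nrp2, was at 157 and 158 normalized counts in WT mESCs, 109.9 and 84.4 in CTCF-K20R mESCs, 492 and 475 in WT EBs and 134 and 191 in CTCF-K20R EBs, giving a log2 fold change of -1.59 on day 4 that was called. Both ligands were thus lower in the EBs in which their co-receptors were lower. Sema3c, which can bind either neuropilin, was higher, at 24.4 and 27 in WT EBs and 140.2 and 157 in CTCF-K20R EBs, giving a log2 fold change of 2.48 (limma adjusted p = 0.00712). Sema3e was at 44.1 and 40.5 normalized counts in WT and 26.9 and 17.9 in CTCF-K20R mESCs, and 414 and 438 in WT and 772 and 863 in CTCF-K20R EBs. It had the highest mean of its class, and its day 4 log2 fold change of 0.94 (limma adjusted p = 0.0472) fell short of the minimum. Sema3b and Sema3d were not called.

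Class 4, 5 and 7 semaphorins are held in the membrane. Sema4d, the ligand of Plxnb1, was the 1 abundant member called higher, at 918 and 902 normalized counts in WT and 686 and 896 in CTCF-K20R mESCs, and 249 and 270.3 in WT and 859 and 854 in CTCF-K20R EBs. The CTCF-K20R EBs thus kept about the level of mESCs, while WT EBs were lower, and the log2 fold change was 1.72 (standard error 0.16, limma adjusted p = 0.000955). Sema4c, a ligand of Plxnb2, was at 145 and 159 normalized counts in WT and 94.6 and 153 in CTCF-K20R mESCs, and 1559 and 1569 in WT and 587 and 614 in CTCF-K20R EBs, and was called lower with a log2 fold change of -1.38 on day 4. Sema4c shares 334 exon bases with a transcript on the opposite strand. Sema4b was at 1808 and 1786 normalized counts in WT and 1326 and 1284 in CTCF-K20R mESCs, and 425 and 429 in WT and 606 and 646 in CTCF-K20R EBs. It was lower in CTCF-K20R cells on day 0 and higher on day 4, with log2 fold changes of -0.46 and 0.55 that stayed under the minimum. Sema4a, Sema4f and Sema4g were not called on day 4, with log2 fold changes of -0.32, 0.72 and 0.09.

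Sema5a and Sema5b, which carry thrombospondin repeats outside the cell, were both lower on day 4 although WT cells took them in opposite directions. Sema5a was at 22.7 and 23.7 normalized counts in WT and 14 and 19.8 in CTCF-K20R mESCs, and 610.3 and 597 in WT and 202 and 182 in CTCF-K20R EBs, giving a log2 fold change of -1.65 on day 4. Sema5b was at 763 and 740.1 normalized counts in WT and 727 and 802 in CTCF-K20R mESCs, and 92.9 and 99.7 in WT and 27.1 and 51.0 in CTCF-K20R EBs, and its log2 fold change of -1.35 was called (limma adjusted p = 0.033) but lost in 7 of the alternative analyses. Sema7a, the lipid-anchored semaphorin, was at 129.8 and 131 normalized counts in WT and 71.3 and 71.5 in CTCF-K20R mESCs, and 381 and 374 in WT and 51.6 and 40.1 in CTCF-K20R EBs. Its log2 fold change was -3.03 (standard error 0.26, limma adjusted p = 0.000676), and CTCF-K20R EBs lay below every other group.

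**Figure D3:**
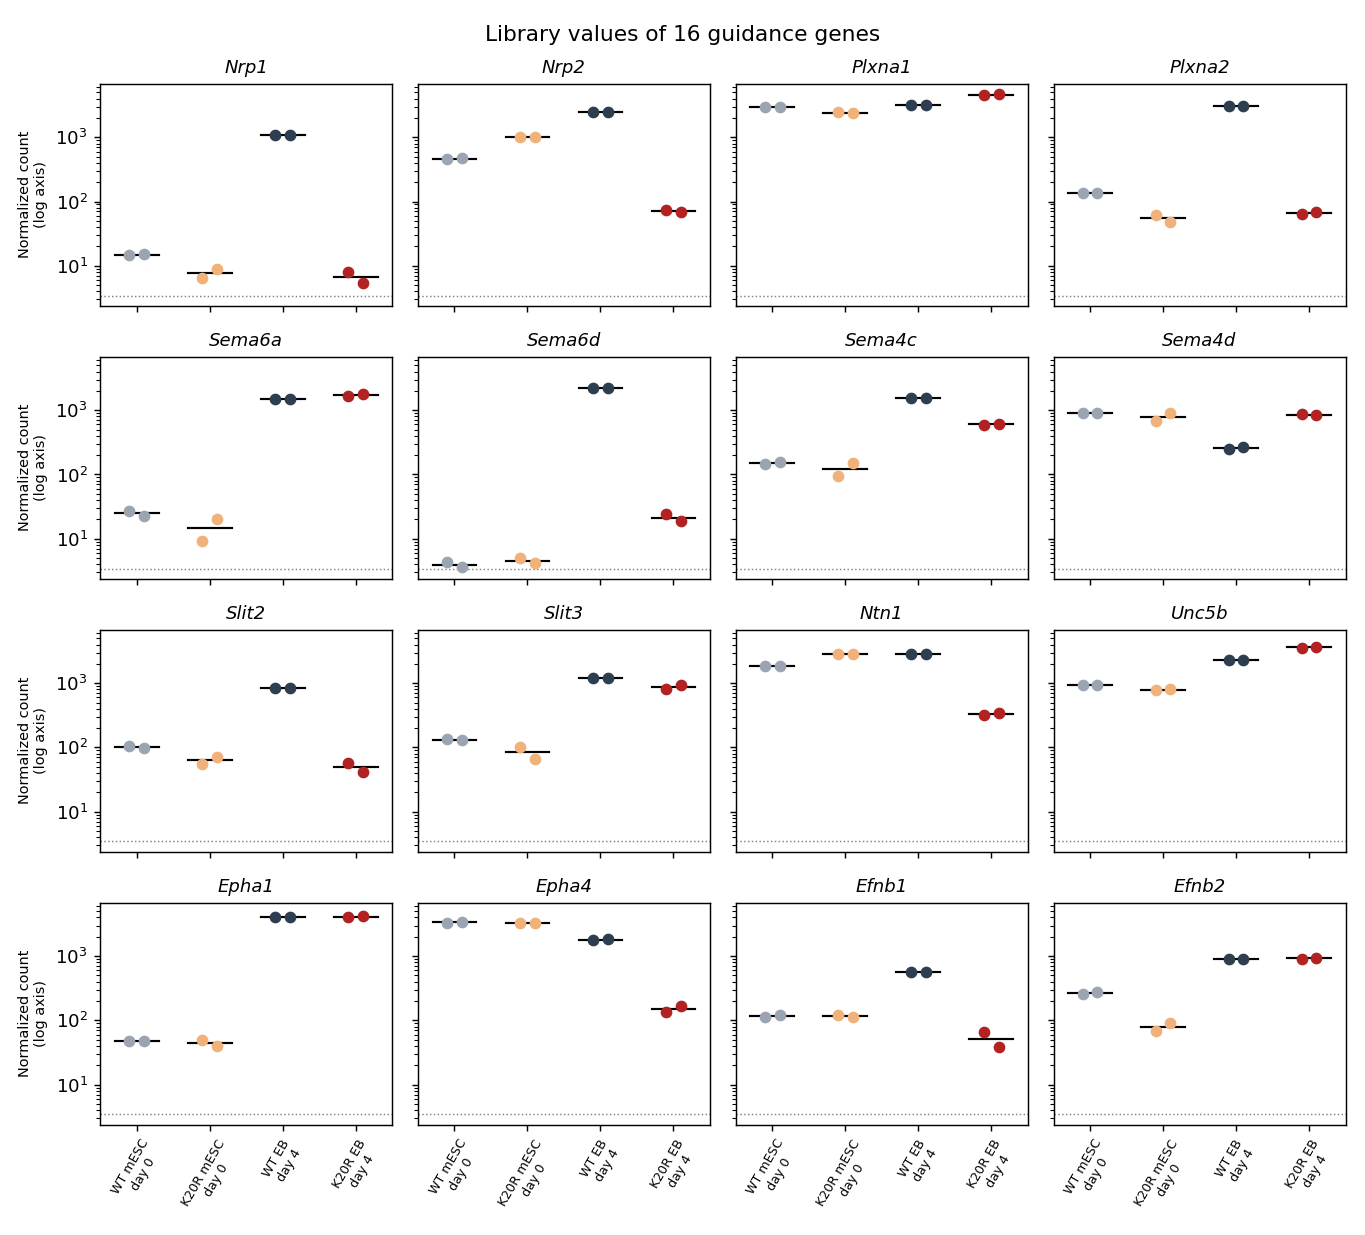
Each panel shows the normalized counts of 1 gene in the 8 libraries on a log axis, with points for libraries, bars for group means and a dotted line at the highest limit of detection, 3.44. The CTCF-K20R EBs lie far below the WT EBs for Nrp1, Nrp2, Plxna2, Sema6d, Slit2, Ntn1, Epha4 and Efnb1, close to them for Sema6a, Slit3, Epha1 and Efnb2, and above them for Sema4d.

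The Slits, secreted repellents, were lower in 2 of 3 cases. Slit2 (ENSMUSG00000031558, chr5:47983138-48307733) was at 105 and 98.8 normalized counts in WT and 55.4 and 70.1 in CTCF-K20R mESCs, and 854 and 844 in WT and 57.5 and 41.7 in CTCF-K20R EBs. Slit1 was at 10.4 and 9.77 normalized counts in WT and 16.7 and 9.97 in CTCF-K20R mESCs, and 372 and 369 in WT and 21.1 and 27.8 in CTCF-K20R EBs. Their log2 fold changes on day 4 were -4.09 (standard error 0.30, limma adjusted p = 0.000422) and -3.88 (standard error 0.45, limma adjusted p = 0.00198), and in both genes the CTCF-K20R EBs remained near the mESC level. Slit3 was at 133 and 131 normalized counts in WT and 102 and 65.6 in CTCF-K20R mESCs, and 1215 and 1202 in WT and 812 and 923 in CTCF-K20R EBs and was not called (log2 fold change -0.48, limma adjusted p = 0.211). Slit3 made up 60.6% of the Slit sum per kilobase in WT EBs and 94.7% in CTCF-K20R EBs.

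Of the Robo receptors, Robo1, the broadly used Slit receptor, was at 1331 and 1343 normalized counts in WT and 812 and 802 in CTCF-K20R mESCs, and 2001 and 1989 in WT and 458 and 552 in CTCF-K20R EBs. All 4 CTCF-K20R libraries lay below all 4 WT libraries. The day 4 log2 fold change was -1.99 (standard error 0.12, limma adjusted p = 0.000234), and the day 0 value of -0.73 passed the adjusted p (limma adjusted p = 0.0182) without reaching the minimum. Robo3, known from axons that cross the midline, was at 276 and 287 in WT EBs and 14.2 and 16.1 in CTCF-K20R EBs, giving a log2 fold change of -4.14 (limma adjusted p = 0.00347). On day 0 it was under the limit of detection in both WT libraries and at 6.43 and 14.3 in the CTCF-K20R libraries. Robo4, the endothelial member, ends 0.554 kb from Robo3 on the opposite strand and was not called (log2 fold change -0.95). Robo2 was listed at 0 in all mESC libraries and was at 9.97 and 9.72 in WT EBs and 0 and 2.14 in CTCF-K20R EBs.

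Ntn1 (ENSMUSG00000020902, chr11:68209364-68400823), the main secreted netrin, was at 1860.2 and 1843 normalized counts in WT and 2882 and 2897 in CTCF-K20R mESCs, and 2882 and 2818 in WT and 314 and 347 in CTCF-K20R EBs. The order of the genotypes was thus opposite on the 2 days. On day 4 its log2 fold change was -3.11 (standard error 0.08, limma adjusted p = 2.53e-05), and on day 0 it was 0.64, past the adjusted p (limma adjusted p = 0.0076) but under the minimum. Ntn3 and Ntn4, the second of which binds laminins, had day 4 log2 fold changes of -0.56 and -1.70 and were not called.

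The netrin receptors went in both directions. Unc5b, a repulsive netrin receptor of vessels and axons, was at 942 and 948 normalized counts in WT and 788 and 798 in CTCF-K20R mESCs, and 2289 and 2284 in WT and 3548 and 3722 in CTCF-K20R EBs. It was higher in both CTCF-K20R EB libraries than in WT EBs with a log2 fold change of 0.67 (limma adjusted p = 0.000832) that lay under the minimum. Unc5a was lower on day 0, at 128 and 121 in WT mESCs and 33.9 and 25.5 in CTCF-K20R mESCs, and higher on day 4, at 17.5 and 18.4 in WT EBs and 73.0 and 79.9 in CTCF-K20R EBs, with log2 fold changes of -2.04 and 2.03 that were both called. Unc5d was called lower on day 4 (-1.74) and Unc5c was not called (-1.75, limma adjusted p = 0.123). Neo1, which also binds RGM proteins, was at 1370.3 and 1366 normalized counts in WT and 1499.9 and 1374 in CTCF-K20R mESCs, and 1960 and 1964 in WT and 1416 and 1396 in CTCF-K20R EBs and was not called on either day.

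Eph receptors were mostly not called, with 2 lower, 1 higher and 9 not called among the 12 tested. Epha4 (ENSMUSG00000026235, chr1:77367185-77515088), which binds ephrins of both classes, was the abundant exception and was at 3298 and 3425 normalized counts in WT and 3252 and 3253 in CTCF-K20R mESCs, and 1787 and 1818 in WT and 137 and 168 in CTCF-K20R EBs. In mESCs the genotypes were within 0.05 of each other on the log2 scale (-0.05), and on day 4 the log2 fold change was -3.56 (standard error 0.13, limma adjusted p = 5.32e-05). Epha7 was at 129.8 and 145 normalized counts in WT and 59.0 and 61.0 in CTCF-K20R mESCs, and 1278 and 1304 in WT and 188 and 257 in CTCF-K20R EBs, with log2 fold changes of -2.55 on day 4 and -1.18 on day 0 that were both called. Epha1 was at 48.5 and 47.1 normalized counts in WT and 49.5 and 39.5 in CTCF-K20R mESCs, and 4046 and 4033 in WT and 4107 and 4153 in CTCF-K20R EBs, and its log2 fold change on day 4 was 0.03 with a standard error of 0.16. Epha1 shares exon bases with Zyx on the opposite strand, so part of its reads could be assigned to either. Epha2, the member with the highest mean, was at 2813 and 2738 normalized counts in WT and 3264 and 3444 in CTCF-K20R mESCs, and 2443 and 2485 in WT and 1878 and 2008 in CTCF-K20R EBs, and its day 4 log2 fold change of -0.34 was under the minimum.

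Among the other Eph receptors, Epha10, whose kinase domain lacks activity, was higher, at 4.26 and 4.19 in WT EBs and 35.1 and 44.6 in CTCF-K20R EBs, giving a log2 fold change of 2.96 (limma adjusted p = 0.00361). Epha8 was at 38.3 and 36.4 in WT EBs and 181 and 209 in CTCF-K20R EBs and missed the threshold (log2 fold change 2.35, limma adjusted p = 0.0537). Epha3 was listed at 0 in all mESC libraries and was at 15.1 and 14.4 in WT EBs and 3.34 and 1.08 in CTCF-K20R EBs. Of the 5 EphB receptors, 0 were called on day 4 with limma, while 2 passed the adjusted p alone, as did 6329 of all 15767 genes tested. An unadjusted p under 0.05 was reached by 4. The share of all genes at that level was not counted, so this number is no result about EphB receptors. All 5 log2 fold changes were below 0 and ranged from -1.89 for Ephb1 to -0.18 for Ephb3. Ephb4, the receptor of Efnb2 that marks veins, was at 951 and 944 normalized counts in WT and 806 and 811 in CTCF-K20R mESCs, and 1912 and 1876 in WT and 1144 and 1194 in CTCF-K20R EBs, and its log2 fold change of -0.70 passed the adjusted p (limma adjusted p = 0.00109) without reaching the minimum. Ephb2 was at 657 and 659 normalized counts in WT and 314 and 321 in CTCF-K20R mESCs, and 777 and 767 in WT and 417 and 435 in CTCF-K20R EBs and was called on day 0 (log2 fold change -1.05, limma adjusted p = 0.0039). Per kilobase, the EphA sum was 2356 in WT EBs and 1870 in CTCF-K20R EBs, of which Epha1 made up 52.4% and 67.5%.

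Ephrins were lower in 6 of 8 cases on day 4, and the other two were not called. Efna3 lies between Efna4 and Efna1 on chromosome 3, with gaps of 10.4 and 32.8 kb. Efna3 was at 249 and 236 normalized counts in WT and 204 and 234 in CTCF-K20R mESCs, and 1707 and 1698 in WT and 229.8 and 171 in CTCF-K20R EBs, Efna4 was at 899 and 895 in WT EBs and 349.6 and 314 in CTCF-K20R EBs, and Efna1 was at 206 and 205 and 103 and 100.4. In mESCs, Efna4 was at 409 and 395 in WT and 313 and 321 in CTCF-K20R libraries, and Efna1 at 73.9 and 73.7 and 47.2 and 47.3. The 3 neighbours were all called lower on day 4 and by unequal amounts, with log2 fold changes of -3.10, -1.43 and -1.01, of which that of Efna1 lay at the minimum and was lost in 4 of the alternative analyses. Efna5 was at 8.77 and 11 normalized counts in WT and 5.22 and 3.19 in CTCF-K20R mESCs, and 363 and 360.1 in WT and 98.2 and 72.2 in CTCF-K20R EBs, giving a log2 fold change of -2.09. Efna2 was at 152 and 148 normalized counts in WT and 249 and 286 in CTCF-K20R mESCs, and 386 and 392 in WT and 213 and 220.1 in CTCF-K20R EBs, which placed CTCF-K20R above WT on day 0 and below it on day 4, in both cases under the minimum (0.83 and -0.84). Per kilobase, the ephrin-A sum was 472.0 in WT mESCs, 446.8 in CTCF-K20R mESCs, 1680 in WT EBs and 477.5 in CTCF-K20R EBs, so that the CTCF-K20R EBs had about the sum of undifferentiated cells. Efna3 and Efna4 each share exon bases with an antisense transcript.

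The 3 ephrin-B genes took 3 courses. Efnb1 (ENSMUSG00000031217, chrX:99136130-99148991), which lies on the X chromosome, was at 114 and 119.6 normalized counts in WT and 122 and 112 in CTCF-K20R mESCs, and 571 and 557 in WT and 65.0 and 38.3 in CTCF-K20R EBs, giving a log2 fold change of -3.47 on day 4 (standard error 0.34, limma adjusted p = 0.00109). Efnb3 was at 113 and 115 normalized counts in WT and 163 and 147 in CTCF-K20R mESCs, and 558 and 553 in WT and 173 and 228 in CTCF-K20R EBs, giving a log2 fold change of -1.48 on day 4. Efnb2, the arterial ephrin, was at 257 and 272 normalized counts in WT and 68.6 and 90.6 in CTCF-K20R mESCs, and 901 and 891 in WT and 909 and 952 in CTCF-K20R EBs. It was lower in CTCF-K20R mESCs (log2 fold change -1.73, limma adjusted p = 0.00549) and close to WT in EBs (0.05, standard error 0.19), the reverse of Efnb1. Efnb2 made up 35.0% of the ephrin-B sum per kilobase in WT EBs and 71.1% in CTCF-K20R EBs.

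**Figure D4:**
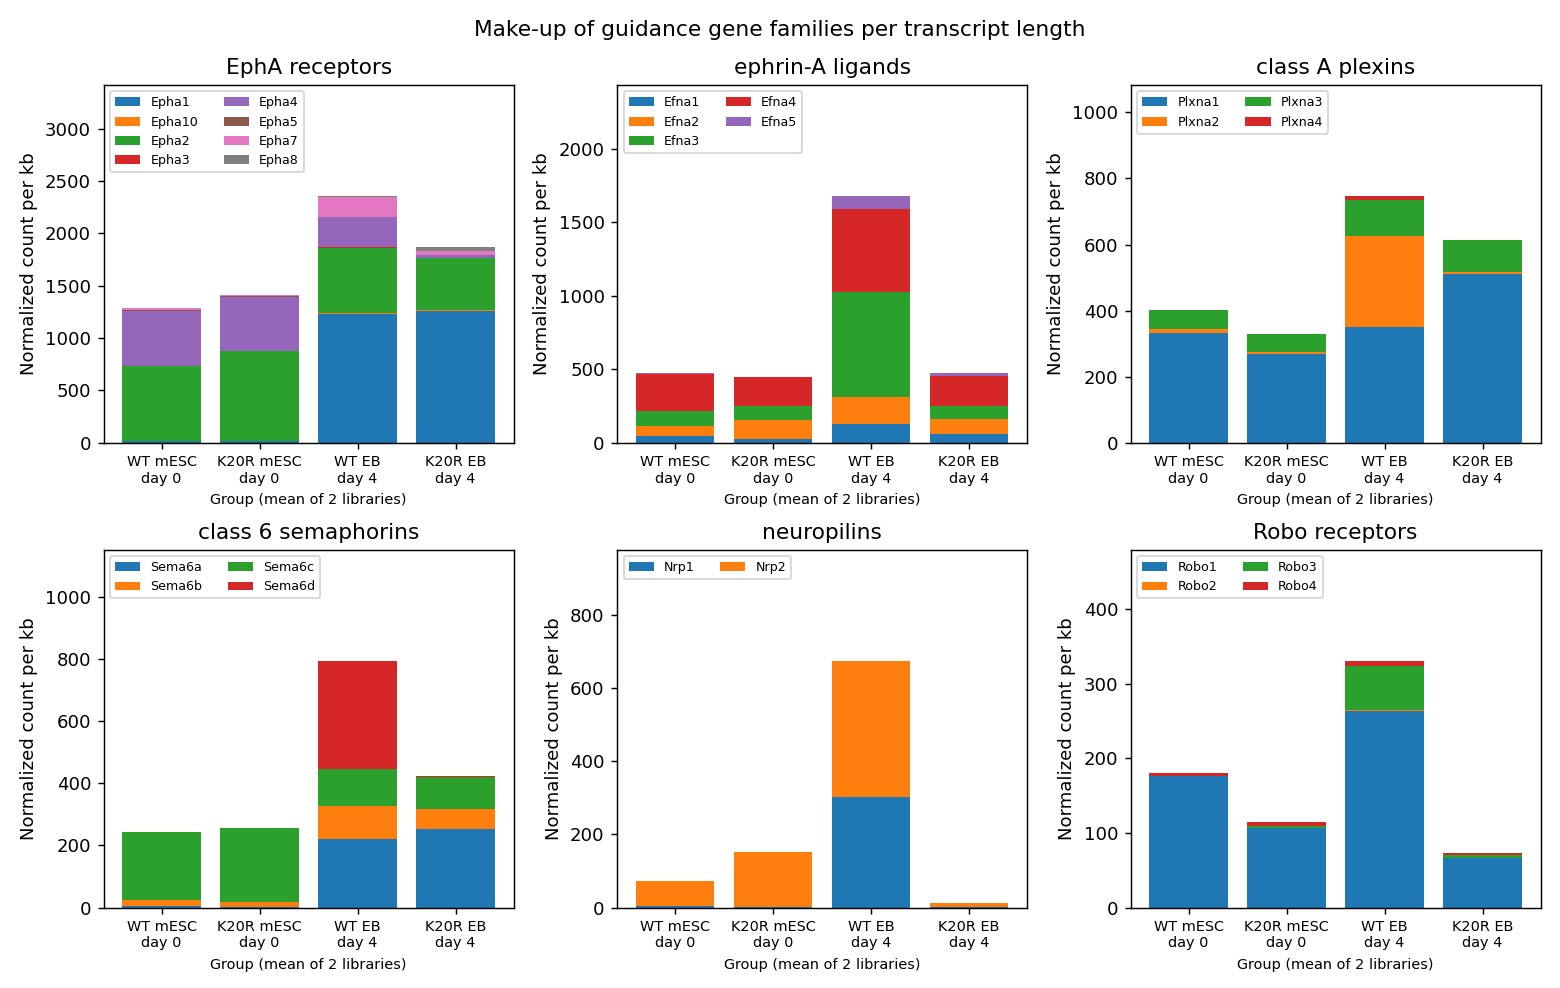
Stacked bars give the mean normalized counts per kilobase of the longest coding transcript for the genes of 6 families in the 4 groups, with 2 libraries averaged in each. In CTCF-K20R EBs the neuropilin bar falls to 12.3, Plxna1 makes up 83.3% of the class A plexins, and the ephrin-A bar returns to the height of the mESC bars.

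Most of these genes were higher in WT EBs than in WT mESCs. From day 0 to day 4, 39 of the 63 genes were more than 2-fold higher in WT cells and 9 were more than 2-fold lower, which is 61.9% and 14.3% of them beside 18.9% and 16.3% of all genes tested. The WT change sets 1 sample against 1 and has no replicate check. Within CTCF-K20R cells, where the change could be tested with n = 2 a day, 22 genes rose and 11 fell, beside 14.5% and 11.6% of all genes tested. Of the 39 genes that were higher in WT EBs than in WT mESCs, 20 rose in CTCF-K20R cells, 2 fell and 17 were not called. For all 2977 genes with such a difference in WT cells, 55.9% rose and 2.38% fell in CTCF-K20R cells. The median log2 change of the 39 genes was 2.81 in WT cells and 1.06 in CTCF-K20R cells, beside 2.00 and 1.36 for all 2977 genes. Both sets were chosen by their WT difference, which by itself favours a larger median in WT cells. Across the 63 genes, which are not independent replicates, the correlation of both changes was 0.557, and across all 15767 genes it was 0.721.

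Among the 39 genes, some reached the WT difference in CTCF-K20R cells and others did not rise. Epha1 rose by 6.51 on the log2 scale in CTCF-K20R cells, against a WT difference of 6.37. Sema6a rose by 6.89 against 5.86, Sema3e by 5.15 against 3.30, Slit3 by 3.39 against 3.18, and Efnb2 by 3.54 against 1.76. Sema6d rose by 2.01 against a WT difference of 8.83, a small part of the WT difference. Nrp1 (-0.17 in CTCF-K20R cells, 6.10 in WT), Plxna2 (0.27 and 4.48), Slit2 (-0.34 and 3.04) and Efna3 (-0.14 and 2.81) were not called as changed in CTCF-K20R cells. Nrp2 and Efnb1 fell in CTCF-K20R cells, by 3.82 and 1.21, while they were higher in WT EBs by 2.42 and 2.26.

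Genes that were near even or lower in WT cells also parted. Ntn1 fell by 3.13 in CTCF-K20R cells against a WT difference of 0.62, and Epha4 fell by 4.41 against -0.90. Sema5b, Sema4a, Sema4f, Sema4g, Sema3b and Sema4b, 6 of the 9 genes that were more than 2-fold lower in WT EBs, fell in CTCF-K20R cells as well, beside 51.3% of all 2569 genes with such a difference in WT cells. Sema4d, which was lower in WT EBs by -1.80, was not called in CTCF-K20R cells (0.13), and Unc5a rose by 1.35 against -2.73 in WT cells. The rise of Sema3c by 2.58 in CTCF-K20R cells stood against a WT difference of 0.28.

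**Figure D5:**
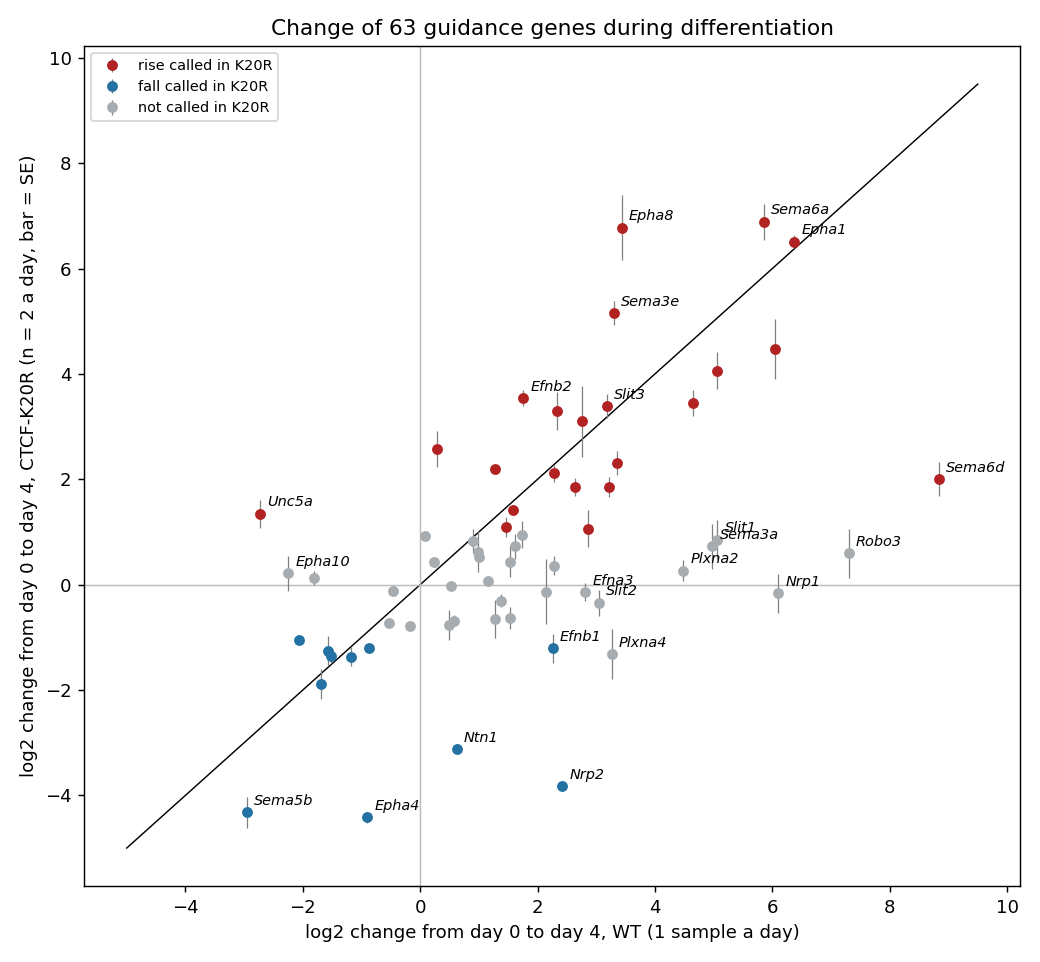
The log2 change from day 0 to day 4 in WT cells is on the horizontal axis and that in CTCF-K20R cells on the vertical axis, with standard errors for the second and a line of equality. Epha1, Sema6a and Slit3 lie near or above the line, Nrp1, Plxna2, Slit2 and Robo3 near 0 on the vertical axis, and Nrp2, Ntn1, Epha4 and Efnb1 below 0.

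Whether the genotype difference itself changed between the days was tested with an interaction term. It was below 0 for 19 of the 63 genes and above 0 for 7, beside 6.04% and 6.84% of all genes tested. In 6 of these genes the genotype difference had opposite signs on the 2 days with a limma adjusted p under 0.05 on both, beside 2.19% of all genes tested. The largest negative terms were those of Sema6d (-6.83), Robo3 (-6.71), Nrp1 (-6.27) and Nrp2 (-6.24), and the largest positive ones those of Unc5a (4.07), Epha10 (2.47) and Sema3c (2.30). Sema6d, Robo3 and Nrp1 had passed the mean of at least 10 only through the WT EB libraries. When either CTCF-K20R EB library was left out, 12 or 11 negative terms and 1 or 0 positive terms were called by limma.

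In mESCs on day 0, few guidance genes differed, with 2 higher and 6 lower in CTCF-K20R cells beside 1.19% and 2.6% of all genes tested. Those higher were Nrp2 and Robo3, and those lower were Plxna2, Plxnc1, Unc5a, Epha7, Ephb2 and Efnb2. Over all 63 tested, the log2 fold change had a median of -0.23 against -0.01 for all genes tested, and 36 genes had both CTCF-K20R libraries below the WT pair, 14 had both above it and 13 overlapped, beside 40.3% below and 37.6% above among all genes tested. The call of Plxnc1 rests on WT replicate 2, since the WT libraries held 5.94 and 36.2 and the CTCF-K20R libraries 3.8 and 2.89 normalized counts, and without that library 5 genes were lower. When only mESCs were fitted, Nrp2 alone was called, and without either of the CTCF-K20R EB libraries, which contribute to the shared error, limma kept none of the 8 calls. Leaving out either CTCF-K20R mESC library gave 3 genes lower and 1 higher.

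Partners and effectors of these pathways were also tested. Of 53 such genes, from a list of further ligands, co-receptors and cytoplasmic proteins, 15 were lower and 4 higher in CTCF-K20R EBs, beside the 8.65% and 6.89% of all genes, and their median log2 fold change was -0.29. On day 0, 2 were called, both lower. When CTCF-K20R EB replicate 1 was left out, 12 were called on day 4 instead of 19. Outside the cell, Flrt3, a membrane protein that binds Unc5 and Robo receptors, was at 888 and 905 in WT EBs and 37.2 and 38.7 in CTCF-K20R EBs, giving a log2 fold change of -4.53 (limma adjusted p = 0.000133). Ntng1, a netrin-like protein with a lipid anchor, was at 69.7 and 82.4 in WT EBs and listed at 0 in both CTCF-K20R EB libraries, and Rgma, the ligand of Neo1, was lower by 1.42. Plxdc1 was higher, at 7.77 and 7.3 in WT EBs and 35.1 and 71.0 in CTCF-K20R EBs, as were Flrt1 and Dscaml1, with log2 fold changes of 3.01 and 2.63. Flrt1 was near the limit of detection in WT EBs, at 1.92 and 2.44, and at 26.3 and 22.8 in CTCF-K20R EBs.

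Inside the cell, 2 of the 5 members of the collapsin response family, which act on microtubules downstream of Sema3a, were called lower on day 4. Dpysl5 was at 3445 and 3423 in WT EBs and 873 and 911 in CTCF-K20R EBs, and Dpysl3 at 1890.1 and 1935 and 535 and 472. The other members were not called, with log2 fold changes of -0.53 for Dpysl2, -1.54 for Dpysl4 and 0.71 for Crmp1, the last of which was at 846 and 837 in WT EBs and 1369.6 and 1392 in CTCF-K20R EBs. Ablim1, an actin-binding protein, was lower on both days, with log2 fold changes of -3.33 on day 4 and -1.26 on day 0. Tiam1, an activator of Rac, Farp1, a plexin-linked exchange factor, and Mical1, an oxidase of actin, had day 4 log2 fold changes of -1.38, -1.13 and -1.10.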

How the data were processed

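RNA was isolated with Trizol and made into Illumina libraries, 2 for each of 4 groups. The authors trimmed the reads with Trim Galore, quantified them on mm10 with Salmon, summed them to genes with tximport and scaled them with DESeq2. The deposited signal is this normalized count for 18094 genes in 8 libraries. Only 54.4% to 62.9% of the low values of a library lay within 0.1 read of a whole number, which leaves the original reads out of reach and the values unsuited to count tests. The annotation release and the use of strand are not given in the sources used here.

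Members were matched by gene symbol, and positions, overlapping exons and transcript lengths came from GENCODE vM21 (GRCm38), in which 17948 identifiers were found. Tests used limma 3.58.1 (R 4.3.3) on log2(value + 1), moderated towards a trend in mean expression with 2 residual and 3.51 prior degrees of freedom, with a mean for each group and Benjamini-Hochberg adjustment over all 15767 genes with a mean of at least 10. The 4 WT libraries entered as 2 averaged samples, so the fit held 6 samples. On this scale fold changes of low genes are understated. The fit was tested on simulated data. Python 3.11.15 with pandas 2.3.3 and matplotlib 3.10.9 made the summaries and plots. Promoters came from RefSeq (GRCm38.p6). Alternatives covered the pseudocount, the filter, the scaling, the model, single libraries and the genes around each member. The deposited files of other assays of the study were not used here.

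The members and lists were chosen with earlier results of these data known. Values in each library are given for the member with the highest mean of each of the 16 families and for members called on day 4, on day 0 or in the interaction with a mean of at least 100, other members are given by fold change, range or values where not called, and of the partners and effectors those called on day 4 with a mean of at least 100 and the 3 largest in either direction are named. Values of Plxna4, Plxnc1, Robo3, Unc5a, Epha10, Sema3c, Robo2, Epha3, Dpysl2, Dpysl4, Crmp1, Thy1 and Fbln2 are given outside this rule and were chosen after they were seen.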

Additional observations from a re-analysis of the deposited data

Results flagged for a closer look

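The genotype difference differed between day 4 and day 0 by limma's interaction term in 26 guidance genes, beside 6.04% of all genes tested with a negative and 6.84% with a positive term. The values below are the log2 fold change of day 4 minus that of day 0. Among the semaphorin receptors, the term was -6.27 for Nrp1, -6.24 for Nrp2, -4.21 for Plxna2 and -4.58 for Plxna4. Among the semaphorins it was -6.83 for Sema6d, -4.25 for Sema3a and -2.17 for Sema7a, and it was positive for Sema3c (2.30), Sema4d (1.93), Sema3e (1.86) and Sema4b (1.01). In the Slit and netrin pathways it was -6.71 for Robo3, -4.21 for Slit1, -3.38 for Slit2, -1.26 for Robo1 and -3.75 for Ntn1, against 4.07 for Unc5a. Among Eph receptors and ephrins it was -3.51 for Epha4, -3.47 for Efnb1, -2.95 for Efna3, -1.91 for Efnb3, -1.67 for Efna2, -1.37 for Epha7 and -1.09 for Efna4, while Epha10 (2.47) and Efnb2 (1.79) had positive terms.

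In 6 of these genes the sign of the genotype difference was opposite on the 2 days with a limma adjusted p under 0.05 on both, beside 2.19% of all genes tested. Nrp2, with day 0 and day 4 log2 fold changes of 1.11 and -5.13, Ntn1, with 0.64 and -3.11, and Efna2, with 0.83 and -0.84, were first higher and then lower in CTCF-K20R cells. Robo3 had the same order, although on day 0 it was under the limit of detection in both WT libraries. Unc5a, with -2.04 and 2.03, and Sema4b, with -0.46 and 0.55, were first lower and then higher. Of the 26 terms, 10 were called under every alternative that tested them, those of Efna3, Efnb1, Epha4, Nrp1, Nrp2, Ntn1, Plxna2, Plxna4, Sema3a and Sema6d. Plxna4 and Sema3a were not tested with a mean of at least 50, which they did not reach.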

How the results depend on the processing

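No call turned its direction in any alternative. Over all members called and all alternatives, 1056 of 1183 calls were the same and 127 were lost. That tally includes the alternatives with no minimum fold change and without genes whose neighbours shifted, neither of which could lose a call. It also includes those without 1 WT library, which kept the near-identical other library of the pair and so could change little. They lost only Plxnc1 on day 0 and the interaction term of Sema3c. In all, 19 of the 30 day 4 calls, 0 of the 8 day 0 calls and 10 of the 26 interaction calls held in every alternative that tested them. With a mean of at least 50, Plxna4, Sema3a and Epha10 were not tested. The numbers of genes higher and lower between the days, in CTCF-K20R cells and in WT cells, stayed within 1.5 times the reported counts. Where values moved, the cause was not tested unless named.

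The day 4 median of -0.95 was -0.99 with a pseudocount of 0.1, -0.82 with a pseudocount of 10, -0.73 for genes with a mean of at least 50 and -0.81 after quantile normalization, and leaving out single libraries gave -0.98 to -0.85. The day 0 median of -0.23 was -0.15 with a pseudocount of 10, -0.15 with every gene above 0, -0.22 for genes with a mean of at least 50 and -0.15 after quantile normalization, and leaving out single libraries gave -0.25 to -0.22. With no minimum fold change, 8 genes were higher and 32 lower on day 4, beside 6329 of all 15767 genes tested in either direction. On day 0, 5 were higher and 11 lower, beside 2429 of all genes tested in either direction. Positive interaction terms numbered 4 with every gene above 0 and 4 with no trend.

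On day 0, the 2 higher genes became 1 with a pseudocount of 10, 1 with every gene above 0, 1 with only the compared groups fitted and 0 with no trend. The 6 lower genes became 3 with every gene above 0, 0 with only the compared groups fitted and 0 with no trend. With only the compared groups fitted and with no trend in limma, 2 higher and 7 lower genes had an unadjusted p under 0.05 with the same minimum fold change. The share of all genes at an unadjusted p was not counted in any setting, so counts at that level are no result about the guidance genes. The 2 partners and effectors called became 5 with all 8 libraries as separate samples, 1 with every gene above 0, 4 with a mean of at least 50, 0 with only the compared groups fitted (3 at an unadjusted p under 0.05), 1 with no trend and 14 with no minimum fold change.

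Leaving out single libraries removes samples and leaves a lone sample that is assumed to vary like the other groups. It gave 2 to 5 genes higher and 17 to 26 lower on day 4, 0 to 2 higher and 0 to 6 lower on day 0, 0 to 7 positive and 11 to 20 negative interaction terms, 12 to 19 partners and effectors on day 4 and 0 to 2 on day 0, and from day 0 to day 4 19 to 23 genes higher and 9 to 11 lower in CTCF-K20R cells. The 0 counts arose without a CTCF-K20R EB replicate. Without CTCF-K20R EB replicate 1, the day 4 calls of Efna1, Efna5, Plxnd1, Robo3, Sema3c, Sema3f, Sema4c, Sema5a, Sema5b, Unc5a and Unc5d were lost, with limma adjusted p from 0.0534 to 0.249. Without replicate 2, those of Efna1, Efna5, Plxnd1, Robo3, Sema3c, Sema4c, Sema5a and Unc5a were lost, with limma adjusted p from 0.05 to 0.174. All 8 day 0 calls were lost without either CTCF-K20R EB replicate, with limma adjusted p from 0.0588 to 0.134. Without either CTCF-K20R mESC replicate, 4 or 5 of the day 0 calls were lost, and on day 4 that of Sema5b was lost, with a limma adjusted p of 0.075. Without WT mESC replicate 2, the day 0 call of Plxnc1 was lost, with a limma adjusted p of 0.367.

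The replicate numbers of the CTCF-K20R libraries did not pair the days, since their deviations correlated at -0.04 over 12383 genes. With the replicate number as a block, 5 genes were higher and 26 lower on day 4, 2 higher and 6 lower on day 0, and 7 interaction terms were positive and 21 negative. No guidance gene had neighbours with a day 0 median beyond 0.3, so leaving out such genes changed nothing. Differences between genes near the limit of 3 reads are limited by depth.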
